A study of Mus musculus with 18 samples.

Results

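The transcripts of 10 genes of the LIF-STAT3 pathway were followed in 6 kinds of mouse pluripotent stem cell: *Lifr*, *Il6st*, *Osmr*, *Jak1*, *Stat3*, *Socs3*, *Pim1*, *Pim3*, *Gbx2* and *Junb*. The genes were chosen by name, as receptors, kinase, transcription factor and reported targets of the pathway, with earlier results of these data known. They were found by symbol among the 35773 genes of the count tables. RNA-seq of polyA RNA was available for 18 samples, 3 in each of 6 groups, all labelled wild type and of strain 129S2/SvPasCrl. In the study's own account several lines carried a GOF-GFP or Stella-GFP reporter on a mixed background. ESCs were naive embryonic stem cells in 2i/LIF, which holds the GSK3 inhibitor CHIR99021, the MEK inhibitor PD0325901 and LIF. AFSCs were primed cells from blastocysts kept in N2B27 with activin A and bFGF (FGF2). ASCs, advanced pluripotent stem cells, were derived from AFSCs in ABCL, which is N2B27 with activin A, BMP4, CHIR99021 and LIF. ESC-ASCs were ESCs moved from 2i/LIF into ABCL, and their file headers name a single line, mSQ. EpiLCs are epiblast-like cells and EpiSCs are epiblast stem cells, and their media are not given in the sources used here. LIF was therefore stated for ESCs, ASCs and ESC-ASCs, was not among the stated factors for AFSCs, and is not stated either way for EpiLCs and EpiSCs.

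LIF is a cytokine of the interleukin-6 family. It joins LIFR to gp130, the shared signalling chain encoded by *Il6st*, and the JAK kinases bound to these chains phosphorylate STAT3, which then enters the nucleus and activates genes. In mouse ESCs this route sustains self-renewal, and it is held in check by SOCS3, a target of STAT3 that binds gp130 and blocks JAK activity.

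STAT factors bind a palindrome, so the 250 bases before the RefSeq start of each gene (build GRCm38.p6) were searched for TTCNNNGAA, which reads the same on both strands. All 10 genes had a window, 12 windows in total. The motif was present in the windows of 1 of the 10 genes, *Socs3*, against 8.13% of 27025 genes with such windows and 7.02% of the 32851 windows. The stricter form TTCCNGGAA, a subset of the first, was in none of the 10, and in 1.09% of all genes. Parts of 3 windows are shown, without bases annotated as exon, because *Socs3* held the only match, *Stat3* encodes the factor itself and *Junb* was the only tested gene not called between cultures with and without stated LIF. Capitals mark the match, which begins 154 bases before the RefSeq start of *Socs3*. In the annotation used for counting, *Socs3* spans chr11:117966079-117970047, so there its stretch lies inside the gene and not before it. The stretches lie at chr11:117969452-117969616 (*Socs3*, minus strand), chr11:100939541-100939790 (*Stat3*, minus strand) and chr8:84978749-84978998 (*Junb*, minus strand). A match is a description of the letters, and its absence says nothing of the factor.
Socs3: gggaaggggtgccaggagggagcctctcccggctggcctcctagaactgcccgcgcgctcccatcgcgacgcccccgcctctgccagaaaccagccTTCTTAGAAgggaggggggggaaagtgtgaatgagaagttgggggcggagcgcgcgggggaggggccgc
Stat3: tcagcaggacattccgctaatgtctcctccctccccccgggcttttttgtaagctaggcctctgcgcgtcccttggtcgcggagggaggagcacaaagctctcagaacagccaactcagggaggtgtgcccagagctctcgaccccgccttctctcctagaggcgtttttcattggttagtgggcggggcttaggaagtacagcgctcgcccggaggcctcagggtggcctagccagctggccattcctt
Junb: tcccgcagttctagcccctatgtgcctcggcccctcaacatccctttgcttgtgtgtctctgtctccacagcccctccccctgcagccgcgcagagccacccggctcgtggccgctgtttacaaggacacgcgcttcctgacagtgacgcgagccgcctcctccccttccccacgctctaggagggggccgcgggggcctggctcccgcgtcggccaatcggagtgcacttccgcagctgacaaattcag

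Samples held 4961934 to 9906473 counts, except the 3 ESC-ASC samples with 17813619 to 18071600. Levels are given as counts divided by the sample's size factor and by exonic length in kb, so that genes can be compared. Of the 10 genes, 9 passed the filter on low counts, and *Osmr* did not. A gene was called when edgeR's adjusted p was under 0.05 and the log2 fold change was beyond 1. The study describes its RNA-seq samples as 3 biological replicates, but the labels do not say that they were separate cultures. The p-values therefore measure the spread between these samples. The first libraries of ESCs, ASCs, AFSCs and EpiLCs stood apart by their counts over all genes. Chi-square per degree of freedom was 21.5 to 100 for pairs with the first library and 1.65 to 11.8 for the remaining pair. Their mitochondrial shares were 8.08%, 3.48%, 14.4% and 4.31% of counts, the highest in each of these groups. The first EpiSC library also had its group's highest share (4.59%), but there the second library stood apart (11.3 and 10.1, against 1.96). Summed levels of the naive and primed markers followed the labels, but single markers did not always do so. The primed marker *Lefty2* was higher in the groups with stated LIF, by 2.32 on the log2 scale (adjusted p = 2.42e-12, edgeR). The endoderm marker *Gata4* was also higher there, by 2.94 (adjusted p = 1.32e-09). In the same contrast 7 primed and 3 endoderm markers were called lower, where 15.6% of all tested genes were. The summed level of 8 naive markers was 3218 to 9188 in ESCs, ASCs and ESC-ASCs and 16.0 to 447 in the other samples, with 2 of the 8 at 0 in AFSCs and 3 in EpiSCs. The sum of 8 primed markers was 621 to 1456 and 2167 to 5014, respectively. Core pluripotency markers summed to 6460 to 13140 in all samples, fibroblast markers to 25.6 to 137, and endoderm markers to 11.7 to 26.4 except in AFSCs (92.5 to 117) and EpiSCs (219 to 234). Stated LIF therefore goes with CHIR99021 and with the naive markers in these samples, and their parts in a difference cannot be told apart. Nor can bulk RNA tell fewer expressing cells from less RNA per cell. The summed level of 8 WNT response genes did not follow CHIR99021, which the study used to stimulate WNT signalling. It was 1834 to 1885 in ESCs and 959 to 1195 in ASCs, but 457 to 526 in ESC-ASCs. The other groups had 434 to 549 (AFSCs), 353 to 420 (EpiLCs) and 677 to 688 (EpiSCs), and the cause was not tested.

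Most of the 10 genes were higher in ESCs, ASCs and ESC-ASCs than in AFSCs, EpiLCs and EpiSCs, with *Junb* not called and *Osmr* not tested. Of the 9 tested genes 8 were called higher and 0 lower, where 20.3% of the 16901 tested genes were called higher and 15.6% lower. Because the genes were chosen with earlier results of these data known, these counts describe them and do not test the set. Without the 4 first libraries the counts were also 8 and 0. The median log2 fold change of the 9 genes was 2.28, against 0.02 over all tested genes. For *Lifr*, *Il6st*, *Stat3*, *Socs3*, *Pim1* and *Pim3*, all 9 levels lay above the other 9, which held for 7.97% of tested genes, while 5.48% lay wholly below. With the 6 group means as units, an exact two-sided permutation test gave p = 0.1 for these 6 genes and for *Jak1*, the smallest p that 20 splits allow, p = 0.2 for *Gbx2* and p = 1 for *Junb*.

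**Figure D1:**
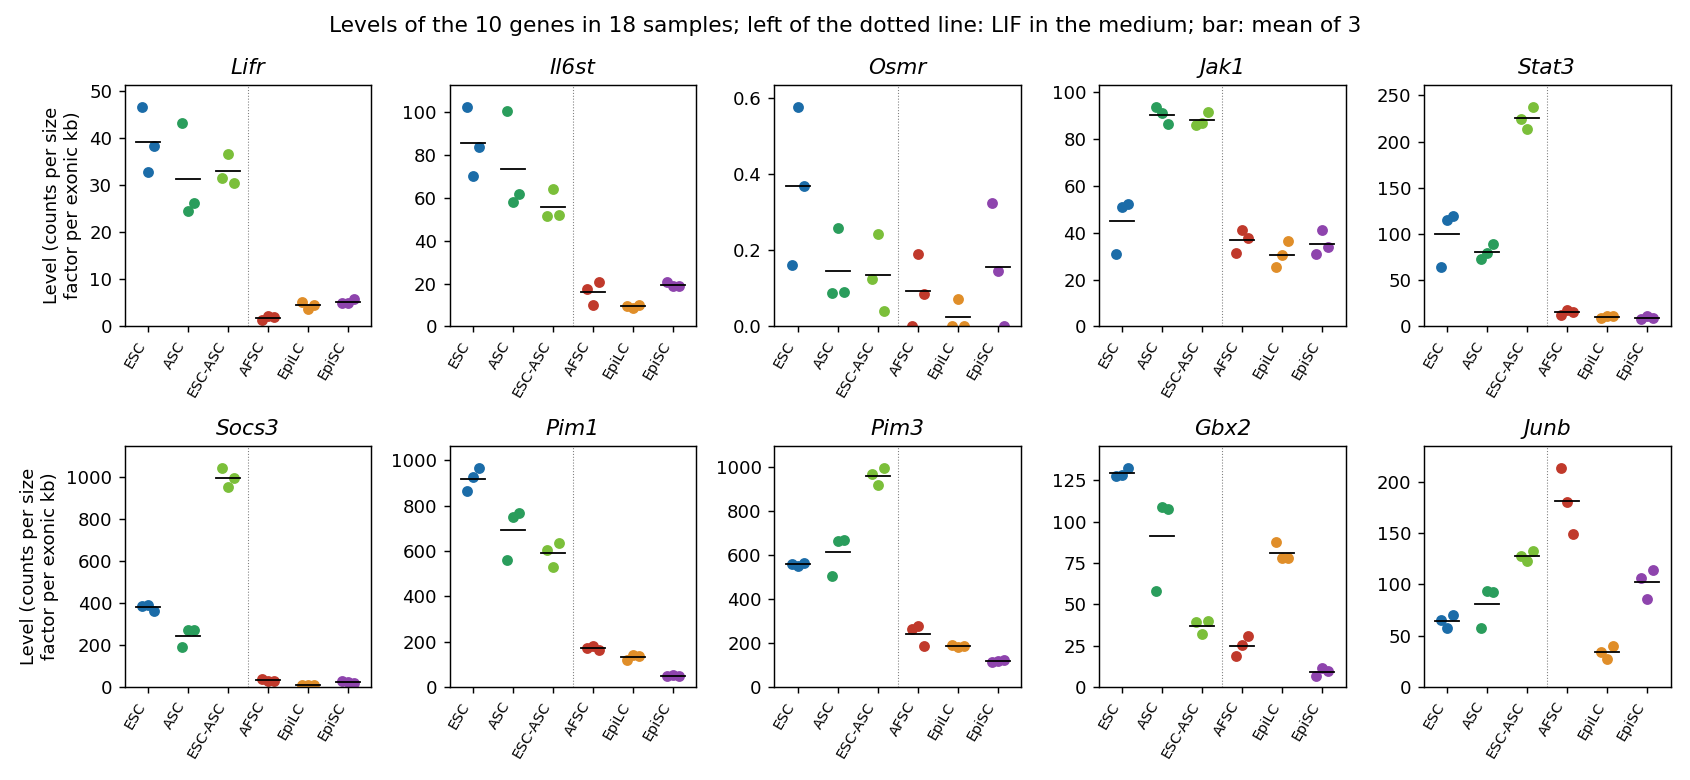
Levels (counts per size factor per exonic kb, linear axes from 0) of each of the 10 genes in every sample of the 6 groups, with points for samples and bars for the mean of 3. *Socs3* and *Stat3* peaked in ESC-ASCs, *Pim1* and *Gbx2* in ESCs and *Junb* in AFSCs, and *Osmr* stayed at or below 0.577.

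*Lifr* encodes the receptor chain that binds LIF (chr15:7129559-7197489, plus strand). Its level was 46.7, 32.8 and 38.4 in the 3 ESC samples, 43.2, 24.5 and 26.2 in ASCs, and 31.6, 36.8 and 30.6 in ESC-ASCs. It was 1.30, 2.24 and 1.91 in AFSCs, 5.15, 3.77 and 4.56 in EpiLCs, and 4.95, 5.03 and 5.82 in EpiSCs. Every sample with stated LIF lay above every other sample, and AFSCs lay lowest, with 10 to 20 counts per sample. The log2 fold change of the first 3 groups over the other 3 was 3.27 (SE 0.135, adjusted p = 6.25e-14, edgeR). Within the first 3 groups neighbouring means were not separated (adjusted p = 0.255 for ESCs over ESC-ASCs and 0.744 for ESC-ASCs over ASCs). EpiSCs and EpiLCs were also not separated (adjusted p = 0.465), whereas EpiLCs exceeded AFSCs by 1.28 on the log2 scale (SE 0.286, adjusted p = 0.00116). The first libraries of ASCs and ESCs gave the highest *Lifr* and *Il6st* values of their groups.

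*Il6st* (chr13:112464070-112510086, plus strand), which encodes gp130, was above *Lifr* in every group by level. The ESC samples had 102.5, 70.0 and 83.8, the ASC samples 101, 58.1 and 61.7, and the ESC-ASC samples 51.6, 64.0 and 51.9. AFSCs had 17.5, 9.91 and 20.9, EpiLCs 9.58, 8.77 and 10.1, and EpiSCs 20.6, 18.7 and 18.9. The 9 samples with stated LIF did not overlap with the others, at a log2 fold change of 2.28 (SE 0.137, adjusted p = 1.69e-11). Unlike *Lifr*, the lowest group was EpiLCs, below AFSCs by 0.76 on the log2 scale (SE 0.247, adjusted p = 0.016), while AFSCs and EpiSCs were not separated (adjusted p = 0.434).

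*Osmr* encodes the chain that pairs with gp130 for oncostatin M (chr15:6813577-6874969, minus strand), and it was close to undetected. The 3 libraries of a group together held 11 counts in ESCs, 5 in ASCs, 10 in ESC-ASCs, 3 in AFSCs, 1 in EpiLCs and 5 in EpiSCs, and no single sample held more than 6. The highest level, 0.577 in an ESC sample, was below the lowest *Lifr* level of any sample. At this depth no difference of *Osmr* between groups was called, and a value obtained without the filter on low counts is given only among the alternatives.

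*Jak1* encodes the tyrosine kinase that gp130 carries (chr4:101152367-101265282, minus strand) and had the smallest difference of the called genes. ASCs had levels of 93.8, 91.2 and 86.5 and ESC-ASCs 86.1, 86.7 and 91.6. ESCs had 31.1, 51.2 and 52.5, AFSCs 31.3, 41.2 and 37.8, EpiLCs 25.3, 30.4 and 36.3, and EpiSCs 30.9, 41.0 and 33.8. The cultures in ABCL thus lay apart from the rest, and ESCs overlapped with the 3 groups without stated LIF. The contrast of the 2 sets of 3 groups gave 1.05 on the log2 scale (SE 0.105, adjusted p = 3.05e-08), just past the threshold. In order of level, ASCs and ESC-ASCs were not separated (adjusted p = 0.894), ESC-ASCs exceeded ESCs by 0.94 (SE 0.178, adjusted p = 0.000158), and ESCs, AFSCs, EpiSCs and EpiLCs were not separated from their neighbours (adjusted p from 0.169 to 0.795).

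*Stat3* (chr11:100885098-100939540, minus strand) had levels of 64.5, 115 and 119 in ESCs, 73.1, 79.4 and 89.0 in ASCs, and 224, 214 and 238 in ESC-ASCs. Levels were 12.9, 18.2 and 15.6 in AFSCs, 9.58, 11.0 and 11.1 in EpiLCs, and 8.40, 11.2 and 8.92 in EpiSCs. The lowest sample with stated LIF, the first ESC library, was still above the highest of the others, 18.2 in an AFSC sample. The log2 fold change was 3.38 (SE 0.121, adjusted p = 7.67e-15). ESC-ASCs ranked first, ahead of ESCs, and ESCs were not separated from ASCs (adjusted p = 0.136). *Stat3* shares 72 exonic bases with *Stat5a* on the other strand, and counting ignored strand. *Stat5a* held 541 to 571 counts in ESC-ASC samples, where *Stat3* held 4177 to 4503, and the part of shared reads was not tested.

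*Socs3*, which encodes the feedback inhibitor (chr11:117966079-117970047, minus strand), showed the largest difference of the 9 tested genes. Its level was 386, 393 and 365 in ESCs, 192, 272 and 273 in ASCs, and 1045, 954 and 996 in ESC-ASCs. It was 38.7, 29.6 and 30.5 in AFSCs, 8.79, 9.49 and 8.51 in EpiLCs, and 28.1, 26.8 and 21.1 in EpiSCs. The 2 sets did not overlap, and within the first set the 3 groups did not overlap either. The log2 fold change was 4.53 (SE 0.0969, adjusted p = 8.02e-18). Each step in the order ESC-ASC, ESC, ASC and AFSC was separated by its test, AFSCs and EpiSCs were not (adjusted p = 0.0713), and EpiLCs lay 1.48 below EpiSCs on the log2 scale (SE 0.191, adjusted p = 3.06e-06).

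*Pim1* and *Pim3* encode serine/threonine kinases whose genes are transcribed in response to STAT3. *Pim1* (chr17:29490812-29496111, plus strand) had levels of 863, 926 and 967 in ESCs, 562, 751 and 766 in ASCs, 606, 530 and 637 in ESC-ASCs, 175, 181 and 164 in AFSCs, 121, 144 and 136 in EpiLCs, and 47.8, 53.1 and 48.9 in EpiSCs. *Pim3* (chr15:88862186-88865718, plus strand) had 557, 549 and 565 in ESCs, 504, 664 and 668 in ASCs, 968, 915 and 996 in ESC-ASCs, 262, 276 and 185 in AFSCs, 192, 184 and 185 in EpiLCs, and 115, 118 and 124 in EpiSCs. For both, every sample with stated LIF exceeded every other sample, and EpiSCs were lowest. The log2 fold changes were 2.77 for *Pim1* (SE 0.0792, adjusted p = 3.04e-16) and 1.97 for *Pim3* (SE 0.0821, adjusted p = 7.28e-14). The order among the first 3 groups was not shared: ESCs ranked first for *Pim1* and ESC-ASCs for *Pim3*. *Pim1* shares 468 of 2638 exonic bases with the antisense gene *Gm26885*, whose counts of 995 to 1136 in ESC-ASCs and 14 to 51 in EpiSCs followed those of *Pim1*, and reads from the 2 strands cannot be told apart in these counts.

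*Gbx2*, a homeobox gene reported as a STAT3 target in ESCs, had another order of groups (chr1:89927956-89931179, minus strand). Its level was 128, 128 and 133 in ESCs, 58.0, 109 and 108 in ASCs, and 39.5, 32.1 and 40.0 in ESC-ASCs. EpiLCs had 87.6, 78.0 and 78.2, AFSCs 18.6, 25.5 and 30.9, and EpiSCs 6.63, 11.7 and 9.65. EpiLCs therefore lay above ESC-ASCs, by 1.15 on the log2 scale (SE 0.213, adjusted p = 0.00012), and were not separated from ASCs (adjusted p = 0.567). The contrast of the 2 sets of groups was 1.48 (SE 0.135, adjusted p = 8.72e-09) with overlapping samples. *Gbx2* shares 689 of 2177 exonic bases with the antisense gene *D130058E05Rik*, whose mean level ran from 87.8 in ASCs to 9.40 in EpiSCs, and the contribution of the 2 strands cannot be told apart.

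*Junb*, an AP-1 gene induced early by many signals including LIF (chr8:84974484-84978718, minus strand), was not called between the 2 sets of groups. The highest levels were those of AFSCs, at 214, 180 and 149.5, and the lowest those of EpiLCs, at 34.2, 27.3 and 40.0. ESC-ASCs had 127, 122 and 133, EpiSCs 107, 85.4 and 114, ASCs 57.7, 93.4 and 93.0, and ESCs 65.0, 57.2 and 70.3. The groups with stated LIF thus sat between AFSCs and EpiLCs, and the log2 fold change was 0.02 (95% interval -0.20 to 0.25, adjusted p = 0.862), with its sign turning when some single libraries were left out. *Junb* shares 173 of 2301 exonic bases with *Prdx2* on the other strand. *Prdx2* had 3057 to 3929 counts in EpiSCs, where *Junb* had 187 to 274, and the part of shared reads was not tested.

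**Figure D2:**
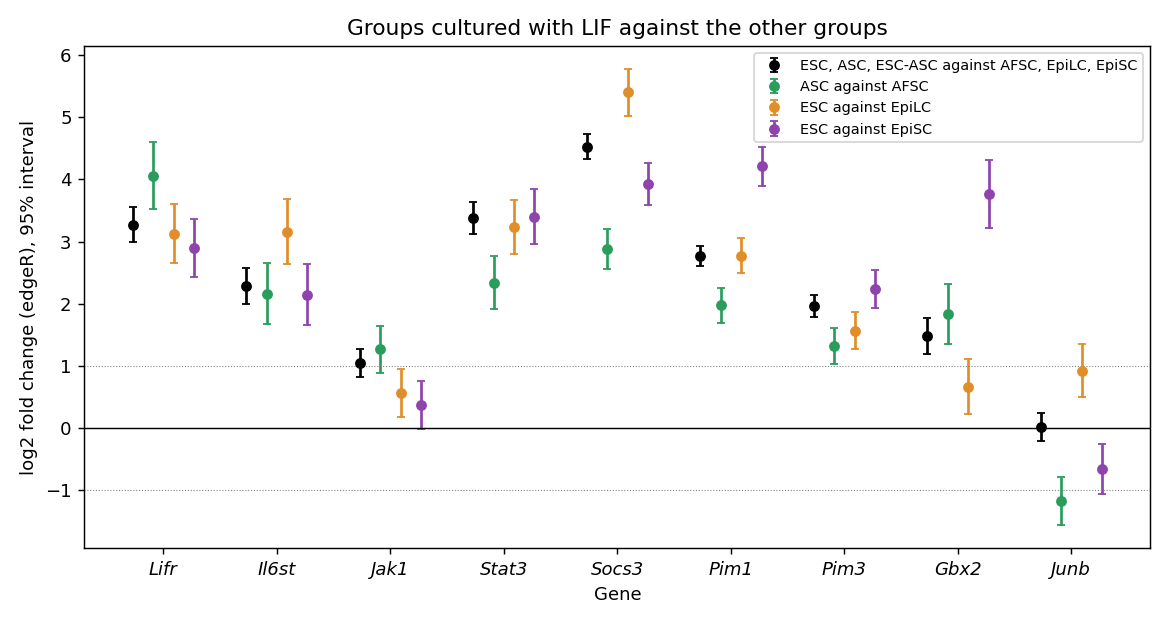
Log2 fold changes with 95% intervals (edgeR) of the 9 tested genes for the 3 groups with stated LIF over the other 3 (black) and for single pairs of groups (colours), with dotted lines at the call threshold of 1. *Socs3* reached 5.40 in ESCs over EpiLCs, and *Junb* fell on either side of 0.

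ASCs were derived from AFSCs by a change of medium, and most of the 9 genes rose between them. *Lifr* rose by 4.06 on the log2 scale (SE 0.256, adjusted p = 1.24e-10), *Socs3* by 2.88 (SE 0.155, adjusted p = 1.49e-11) and *Stat3* by 2.34 (SE 0.202, adjusted p = 9.32e-09). *Il6st* (2.16), *Pim1* (1.97), *Gbx2* (1.83), *Pim3* (1.32) and *Jak1* (1.27) were called higher as well. In all, 8 of 9 genes were higher, against 22.7% of all tested genes, and 1 was lower, against 16.7%. The lower gene was *Junb*, at -1.18 (SE 0.185, adjusted p = 1.96e-05). Without the first ASC library, the lowest of its group for *Junb*, the value was -0.98 (adjusted p = 0.000111) and was no longer past the fold threshold.

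ESCs against EpiLCs gave 6 genes higher and 0 lower (15.9% and 18% of all tested genes). The largest value was that of *Socs3*, 5.40 (SE 0.181, adjusted p = 3.33e-14), followed by *Stat3* (3.24), *Il6st* (3.16), *Lifr* (3.12), *Pim1* (2.77, adjusted p = 3.38e-12) and *Pim3* (1.57). *Junb* (0.92), *Gbx2* (0.67) and *Jak1* (0.56) had adjusted p under the threshold at differences under the fold. ESCs against EpiSCs gave 7 higher and 0 lower (22% and 19% of all tested genes), and here *Gbx2* differed by 3.76 (SE 0.258, adjusted p = 2.2e-10) and *Pim1* by 4.21 (SE 0.147, adjusted p = 2.2e-14). *Jak1* was not separated in this pair (0.37, adjusted p = 0.0853).

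Whether the log2 fold change of ASCs over AFSCs equalled that of ESCs over EpiLCs was tested directly, on 4 groups that share no sample. The *Socs3* change was smaller for ASCs over AFSCs by 2.52 on the log2 scale (SE 0.234, adjusted p = 6.07e-08), and that of *Junb* was lower by 2.10 (SE 0.275, adjusted p = 4.64e-06), since *Junb* fell in one pair and was 0.92 higher in the other. The *Gbx2* change was larger by 1.16 (SE 0.311, adjusted p = 0.00498), or by 0.99 without the first AFSC library. These were 2 calls lower and 1 higher, against 12.6% and 20.5% of all tested genes. By adjusted p alone 8 of the 9 genes differed, as did 45.1% of all tested genes. For *Pim3* no difference was called, at an interval of -0.66 to 0.16 (adjusted p = 0.311).

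**Figure D3:**
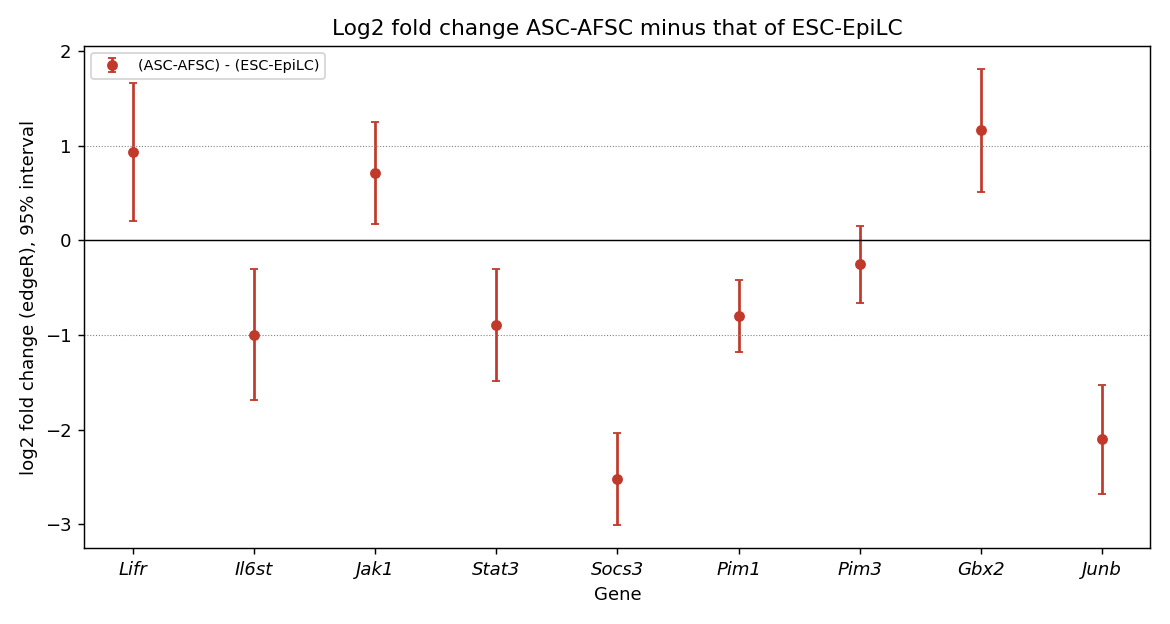
Difference of log2 fold changes, ASCs over AFSCs minus ESCs over EpiLCs, with 95% intervals (edgeR) for the 9 tested genes and dotted lines at 1 and -1. *Socs3* and *Junb* lie below -1, and *Gbx2* lies above 1 with an interval that reaches below it.

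Among the groups with stated LIF, ASCs and ESCs differed least. None of the 9 genes was called by edgeR or DESeq2 in either direction (18.5% of all tested genes were higher and 7.26% lower), and 4 of 9 passed the adjusted p alone, as did 50.3% of all tested genes. These were *Jak1*, at 0.97 just under the fold threshold and past it with other filters on low counts (SE 0.18, adjusted p = 0.000208), *Socs3* at -0.66 (adjusted p = 0.000635), *Pim1* at -0.43 (adjusted p = 0.00854) and *Gbx2* at -0.52 (adjusted p = 0.044). The *Gbx2* pass rests on single libraries and on the processing. It was at -0.28 (adjusted p = 0.21) without the first ASC library and at adjusted p from 0.0606 to 0.0973 without any one of the ESC libraries. With all libraries kept, its adjusted p was 0.0579 by the DESeq2 Wald test and 0.0677 in edgeR without a filter. With only these 2 groups fitted in edgeR, adjusted p was 0.136 for *Gbx2* and 0.118 for *Pim1*. Unadjusted p was under 0.05 for the same 4. For the receptors the intervals were -0.75 to 0.07 (*Lifr*) and -0.69 to 0.23 (*Il6st*). Without the first ASC library, the highest for both, *Lifr* was lower in ASCs at -0.65 (adjusted p = 0.00526) and *Il6st* at -0.53 (adjusted p = 0.0468), and *Junb* higher at 0.52 (adjusted p = 0.0249). Without the first ESC library *Stat3* was at -0.57 (adjusted p = 0.0031).

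ESC-ASCs share their medium with ASCs and were made from ESCs, and they were compared with both. Against ESCs, *Socs3* was higher by 1.37 (SE 0.137, adjusted p = 7.64e-08), *Stat3* by 1.16 (SE 0.184, adjusted p = 2.55e-05), and *Gbx2* was lower at -1.82 (SE 0.214, adjusted p = 6.81e-07), so that 2 were higher and 1 lower (19.3% and 17.1% of all tested genes). Without the first ESC library the *Stat3* value was 0.92, under the fold threshold. *Junb* (0.98) and *Jak1* (0.94) were just under it and passed it with at least 10 counts required in every sample. Against ASCs, *Socs3* was higher by 2.03 (SE 0.14, adjusted p = 1.87e-09), *Stat3* by 1.49 (SE 0.186, adjusted p = 2.75e-06), and *Gbx2* was lower at -1.29 (SE 0.212, adjusted p = 6.22e-05), again 2 higher and 1 lower (8.04% and 16.5%). With 9 genes, these counts are not far from the shares over all genes, and the values describe the named genes only. These 2 comparisons share the ESC-ASC samples. The receptors did not move with *Stat3* and *Socs3*: *Lifr* differed by -0.26 from ESCs (adjusted p = 0.255) and 0.08 from ASCs (adjusted p = 0.744), and *Il6st* by -0.62 (adjusted p = 0.0193) and -0.39 (adjusted p = 0.143). ESC-ASC libraries were also the deepest, and with their counts thinned to 7785262 per sample, *Socs3* differed from ESCs by 1.38 and *Stat3* by 1.16 on the log2 scale. Thinning evens out counting noise but leaves the expected ratio of well-counted genes as it was, so these values could hardly change. Whether the ESC-ASC libraries differ from the others in another technical respect was not tested and cannot be told apart from the group.

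**Figure D4:**
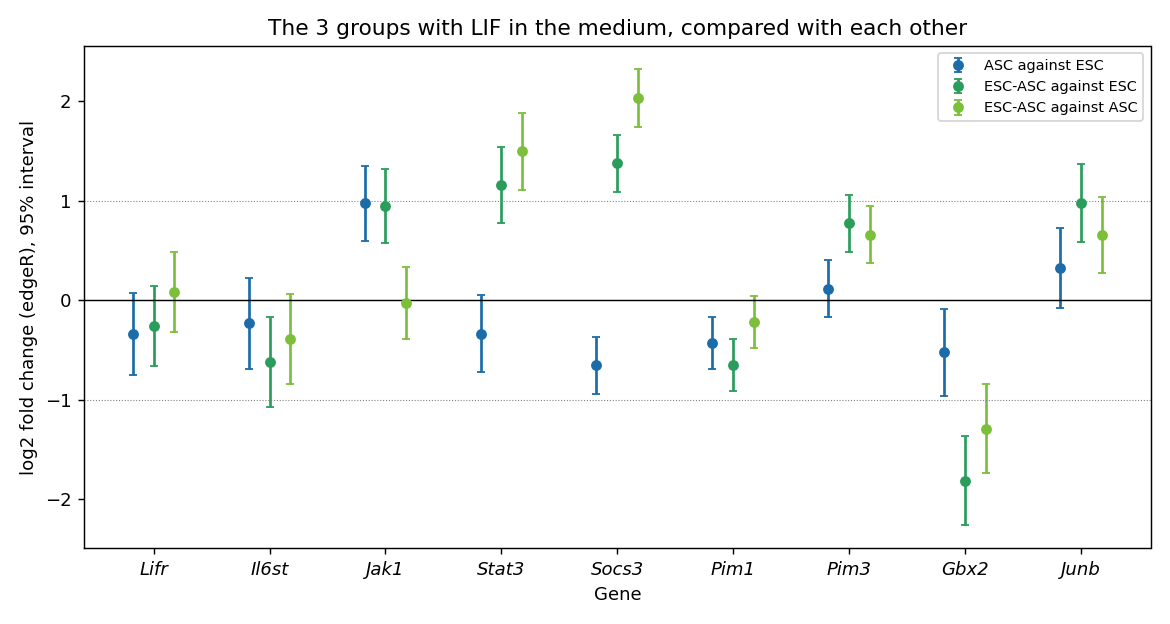
Log2 fold changes with 95% intervals (edgeR) of the 9 tested genes among ESCs, ASCs and ESC-ASCs, with dotted lines at 1 and -1. *Stat3* and *Socs3* lie above 1 and *Gbx2* below -1 in both comparisons of ESC-ASCs, and no gene is beyond either line for ASCs over ESCs.

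The rest of the pathway was described from lists of ligands, receptors, kinases, inhibitors and reported targets, also chosen with earlier results of these data known. Their counts are to be read against 20.3% of all tested genes called higher and 15.6% lower. Of 6 tested ligands 1 was called higher and 2 lower in the 3 groups with stated LIF. *Osm*, encoding oncostatin M, had a level of 191 in ESCs, 20.7 in ASCs and 16.8 in ESC-ASCs, 0 counts in all AFSC samples and at most 3 counts in any EpiLC or EpiSC sample. *Il11* (-1.95, at most 15 counts per sample) and *Clcf1* (-1.12) were the lower ligands. *Lif* itself was transcribed in all groups, with mean levels of 32.2 in ESCs and 33.4 in AFSCs and from 6.35 to 14.1 in the others, and its log2 fold change was 0.39 (adjusted p = 0.0131), under the fold threshold.

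Among 4 other tested receptors 2 were higher and 1 lower (20.3% and 15.6% of all tested genes). *Il6ra*, the interleukin-6 receptor chain, differed by 4.06 (SE 0.201), with mean levels of 21.9 in ESCs and 23.0 in ASCs but 4.97 in ESC-ASCs. *Cntfr*, the ciliary neurotrophic factor receptor chain that joins LIFR and gp130, went the other way at -6.65 (SE 0.189, adjusted p = 2.84e-16), with mean levels of 500 in AFSCs, 98.2 in EpiLCs and 522 in EpiSCs, 0.236 in ESCs, 10.5 in ASCs and 12.2 in ESC-ASCs. *Il27ra* was higher (2.71, on few counts outside ESC-ASCs).

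Other JAK and STAT genes were called higher in 5 of 9 cases and lower in 0 (20.3% and 15.6% of all tested genes), with *Jak3* (2.95), *Stat5a* (2.17) and *Tyk2* (1.25) the largest. *Stat5a* had mean levels of 38.9 in ESC-ASCs, 4.68 in ESCs and 8.18 in ASCs, against 1.98 to 3.05 in the other groups. For it, ESCs exceeded EpiLCs by 1.21 (adjusted p = 0.00114) but were not separated from EpiSCs (0.58, adjusted p = 0.0625, edgeR). *Stat5a* shares 72 exonic bases with *Stat3*, whose counts in ESC-ASCs were far higher, and the part of shared reads was not tested. The median over this list was 1.11, against 0.02 over all tested genes. Of 15 inhibitors and phosphatases 3 were higher and 0 lower (20.3% and 15.6% of all tested genes): *Ptpn6* (1.54), which encodes the phosphatase SHP-1, *Pias2* (1.11) and *Socs7* (1.08). The share called higher was close to that of all tested genes, and the median of the list was 0.16.

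Reported STAT3 targets outside the 10 genes split, 6 higher and 5 lower of 15 (20.3% and 15.6% of all tested genes). *Bcl3* (7.48), *Tfcp2l1* (7.33) and *Klf4* (6.65), the last 2 transcription factors of the naive network, were the most raised. *Pim2* (-4.69), *Myc* (-3.78) and *Cebpb* (-2.35) were the most lowered. The groups with stated LIF were not alike for *Myc* and *Cebpb*. ASCs exceeded ESCs by 2.61 for *Myc* (adjusted p = 1.57e-07) and 2.55 for *Cebpb* (adjusted p = 3.61e-07, edgeR). ESC-ASCs over ASCs gave -3.43 and -2.09, and ASCs over AFSCs gave -2.10 and -1.80, respectively. *Pim2*, the third PIM kinase gene, had mean levels of 2167 in AFSCs, 2256 in EpiLCs and 1457 in EpiSCs and of 42.9 to 114 in the groups with stated LIF, the reverse of *Pim1* and *Pim3*. The list's median was -0.05.

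**Figure D5:**
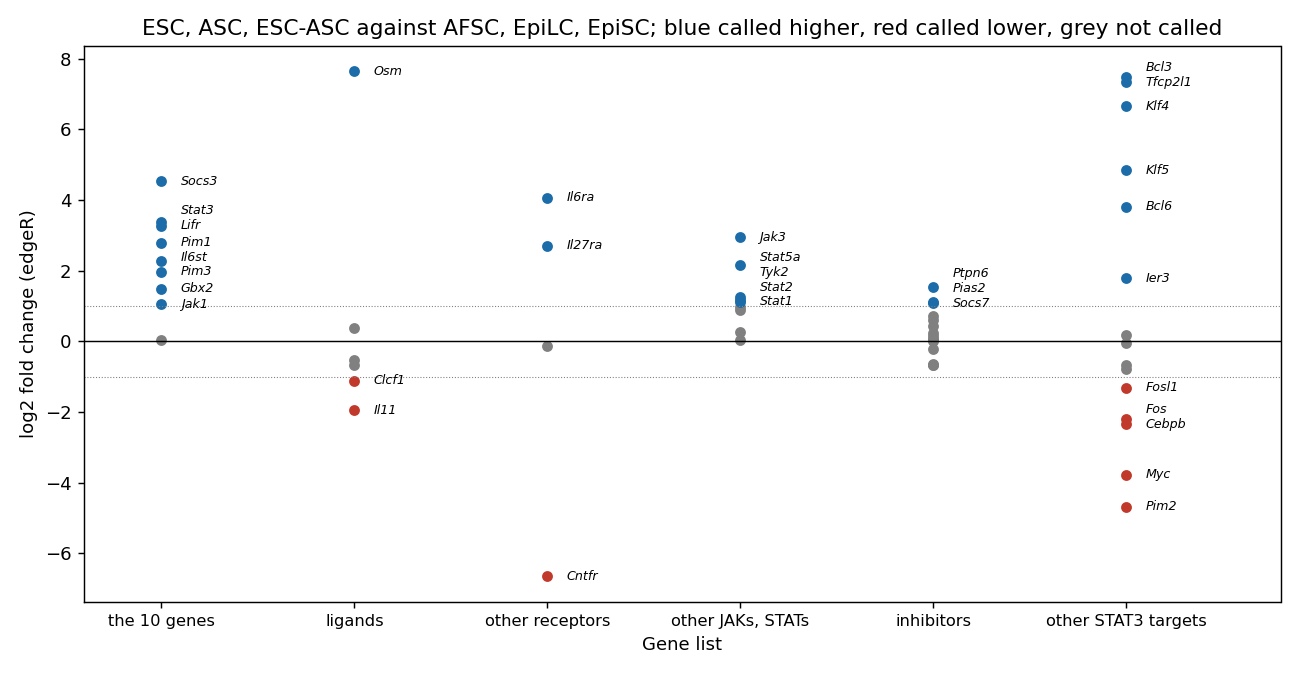
Log2 fold changes (edgeR) of tested genes in 6 lists for ESCs, ASCs and ESC-ASCs over AFSCs, EpiLCs and EpiSCs, 1 point per gene, with blue for called higher, red for called lower and grey for neither. The 10 genes and the other JAK and STAT genes have no red point, whereas ligands, receptors and other targets have both.

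Genes most like *Socs3* and *Lifr* across the 18 samples were sought among 9880 genes with a mean of at least 100 counts, by Pearson correlation of log2 levels. For *Socs3* they were *Parvb* (r = 0.980), *Slc25a36* (r = 0.975) and *Mroh1* (r = 0.971). For *Lifr* they were *Pde8a* (r = 0.981), *Ly6g6d* (r = 0.979) and *Tbx3* (r = 0.978), a naive marker. The 18 points fall into 6 groups, so these values describe a shared order of the groups.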

How the data were processed

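Libraries of polyA RNA were made with a directional kit and sequenced on a HiSeq4000. The authors mapped reads with TopHat2 to GRCm38 and deposited raw counts per gene, made with featureCounts 1.5.0-p1 on Ensembl release 86 without using strand and with fragments that overlap several genes counted for each. The names of the deposited AFSC tables use the word ASC, and sample labels were followed. Counts were tested in R 4.3.3 with edgeR 4.0.16 (TMM, robust quasi-likelihood F test over all 18 samples, Benjamini-Hochberg adjustment over the 16901 genes that reached 10 counts in 3 or more samples). Calls needed an adjusted p under 0.05 and a log2 fold change beyond 1. Levels are counts per DESeq2 (1.42.0) size factor and per exonic kb, and log2 levels for correlations used a pseudocount of 0.1. Depth of 4961934 to 18071600 counts limits genes with few counts. Scripts were tested on simulated data.

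The 10 genes and the lists were chosen with earlier results of these data known. Named genes were all 10 in each comparison, up to 3 called genes with the largest positive and negative values per list, *Lif*, and the 3 genes most correlated with *Socs3* and with *Lifr*. Promoter windows came from RefSeq, and exon annotation from GENCODE. Alternatives covered scaling, filters, DESeq2, thinning, a replicate block and left-out libraries. One gene of the receptor list is not reported here.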

Additional observations from a re-analysis of the deposited data

Results flagged for a closer look

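The log2 fold change of ASCs over AFSCs differed from that of ESCs over EpiLCs for 8 of the 9 tested genes. This was by the interaction test in edgeR (adjusted p under 0.05), a threshold that 45.1% of all tested genes passed. On the log2 scale, ASCs over AFSCs minus ESCs over EpiLCs, the difference was -2.52 for *Socs3*, -2.10 for *Junb*, -0.997 for *Il6st* (adjusted p = 0.0189), -0.90 for *Stat3* (adjusted p = 0.0139) and -0.80 for *Pim1* (adjusted p = 0.00137). It was 1.16 for *Gbx2*, 0.94 for *Lifr* (adjusted p = 0.0343) and 0.71 for *Jak1* (adjusted p = 0.0304). Of these, *Socs3*, *Junb* and *Gbx2* were beyond 1 in size. For *Socs3* the levels behind it were 246 in ASCs and 32.9 in AFSCs, and 381 in ESCs and 8.93 in EpiLCs. The calls on adjusted p rest on single libraries for 3 of them, and for *Il6st* and *Lifr* also on the processing. *Lifr* was at 0.63 (adjusted p = 0.0795) without the first ASC library and lost its pass without any of 6 other libraries (0.76 to 0.96, adjusted p from 0.0537 to 0.105). *Jak1* lost it without 4 libraries in turn, at 0.51 (adjusted p = 0.065) without the first ESC library and 0.60 (adjusted p = 0.0683) without the first AFSC library among them. *Il6st* was at -0.76 (adjusted p = 0.0699) without the third AFSC library. With all libraries kept, it was at adjusted p = 0.0533 with at least 10 counts required in every sample. With only the groups of this comparison fitted in edgeR, adjusted p was 0.0631 for *Il6st* and 0.0558 for *Lifr*. For *Lifr* the value was 0.49 (adjusted p = 0.17) without the first libraries of the 4 groups, an alternative chosen after seeing the data.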

How the results depend on the processing

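The counts of genes called in the contrast of the 3 groups with stated LIF against the other 3, and in ESCs against EpiLCs, ESCs against EpiSCs and ESC-ASCs against ASCs, stayed within 1.5 times under every alternative run. The contrast of all 6 groups has no fit on fewer groups. In ASCs against ESCs, 1 gene was called higher in place of 0 with at least 10 counts in every sample, with no filter, with only the 2 groups, with the replicate block, and without single libraries (range 0 to 1): *Jak1*, at 1.003 with the block. In ESC-ASCs against ESCs, genes called higher numbered 4 with 10 counts in every sample, 1 without the 4 first libraries, and 1 to 4 without single libraries (1 without the first ESC library, 4 without the third). In the difference of ASCs over AFSCs and ESCs over EpiLCs, 2 were called higher with 10 counts in every sample and 0 to 2 without single libraries (0 without the first AFSC library, where *Gbx2* was at 0.99), and 4 were called lower without the 4 first libraries. In ASCs against AFSCs, 0 genes were called lower without the 4 first libraries and 0 to 1 without single libraries. Leaving out the first libraries was chosen after seeing the data. Without single libraries, values that crossed 0 were those of *Junb* in the first contrast (-0.025 to 0.089), *Lifr* in ESC-ASCs against ASCs (-0.075 to 0.385) and *Jak1* there (-0.063 to 0). The cause of these changes was not tested. Same-numbered samples were not treated as paired, since the labels tie the number to nothing. Correlated deviations over 0.1 were nevertheless more frequent in same-numbered pairs, 16 of 45 (mean r 0.0539), than in others, 12 of 90 (mean r -0.0259). The first libraries of 4 groups also stood apart, so some likeness by number was present. Of 18 samples, 6 correlated best with their own number, no more than 3 replicate numbers would give at random. The replicate block changed no other count by over 1.5 times. *Osmr* was tested only without a filter, with log2 3.45 (adjusted p = 0.0147) in ESCs against EpiLCs. That value comes from 11 and 1 counts, too few for a difference to be called.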
